A study of Mus musculus with 16 samples.

Results

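Immediate-early response genes are genes that cells switch on within minutes of a stimulus without first having to make new protein. The ones followed here in growing mouse oocytes were Fos, Fosl2, Jun, Junb, Jund, Egr1, Ier2, Ier3, Myc and Dusp1. They were chosen by gene symbol: each of the 10 genes, of 18820 measured, had 1 probe set whose platform annotation gave that symbol and no other. RNA had been measured on 16 Affymetrix Mouse 1.1 ST arrays, 4 per genotype, and each array held RNA amplified from 80 pooled oocytes of C57BL/6 mice 12 days old. The 4 genotypes were oocytes lacking both Hdac1 and Hdac2 (the double knockout), oocytes lacking Hdac1, oocytes lacking Hdac2, and wild type. HDAC1 and HDAC2 are closely related enzymes that take acetyl groups off histones and work inside shared co-repressor complexes, and the stated aim of the study was to learn what they do while the oocyte grows. Deletion was made with conditional alleles and a Zp3-Cre transgene, whose promoter is active in growing oocytes, so the alleles are intact until the oocyte begins to grow. Whether the wild-type mice carried conditional alleles without Cre was not stated in the labels.

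Immediate-early genes are held ready in many cells by transcription factors already bound to their promoters, chiefly serum response factor with its ETS-family partners and the cAMP-responsive factor CREB, which MAP kinases and other kinases activate. Fos, Fosl2, Jun, Junb and Jund encode subunits of the AP-1 transcription factor, in which a FOS protein pairs with a JUN protein or JUN proteins pair with each other. Egr1 and Myc encode further transcription factors, Ier2 and Ier3 encode short-lived response proteins, and Dusp1 encodes a phosphatase that switches MAP kinases off again. The mRNAs of most of these genes are made in a burst and broken down fast. Histone acetylation at their promoters rises and falls with stimulation, and deacetylases of the HDAC1 and HDAC2 class have been found at several of them in cultured cells.

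Promoter sequences are shown for 4 members, to let the binding motifs named above be seen. They are the members with a TGACG or TGACATCA match, and do not stand for all members. The promoter table supplied, on GRCm38.p6, held a promoter for 7 of the 10 members. It held none for Egr1, Ier2 and Myc, a gap of that table alone. Each run below is the 250 bases before the annotated start, 5′ to 3′ on the gene's own strand, with matches to the motifs listed after the sequences in capitals.
Jun, chr4:95052223-95052472, minus strand: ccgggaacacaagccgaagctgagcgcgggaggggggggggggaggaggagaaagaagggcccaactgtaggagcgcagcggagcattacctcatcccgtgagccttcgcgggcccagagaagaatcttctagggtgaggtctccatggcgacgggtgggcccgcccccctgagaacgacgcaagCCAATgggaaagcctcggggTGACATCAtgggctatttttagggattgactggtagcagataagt
Fos, chr12:85473640-85473889, plus strand: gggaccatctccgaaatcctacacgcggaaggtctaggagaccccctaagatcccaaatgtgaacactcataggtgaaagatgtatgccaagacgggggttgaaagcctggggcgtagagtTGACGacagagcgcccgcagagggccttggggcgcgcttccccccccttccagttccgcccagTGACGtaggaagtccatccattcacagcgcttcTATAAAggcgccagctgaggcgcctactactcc
Junb, chr8:84978749-84978998, minus strand: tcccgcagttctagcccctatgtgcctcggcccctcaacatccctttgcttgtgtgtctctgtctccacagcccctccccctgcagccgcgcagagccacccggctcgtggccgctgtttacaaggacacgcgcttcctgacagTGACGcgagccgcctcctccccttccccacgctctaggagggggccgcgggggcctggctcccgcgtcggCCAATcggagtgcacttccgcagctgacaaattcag
Dusp1, chr17:26508473-26508722, minus strand: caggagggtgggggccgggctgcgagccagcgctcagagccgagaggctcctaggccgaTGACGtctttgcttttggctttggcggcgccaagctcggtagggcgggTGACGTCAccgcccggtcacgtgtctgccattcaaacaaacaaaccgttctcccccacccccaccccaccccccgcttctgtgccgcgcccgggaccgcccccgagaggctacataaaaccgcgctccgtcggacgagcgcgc
Motifs were searched on both strands in all 32851 promoters of the table, cut to the same 250 bases. Dusp1 held the full cAMP-response element TGACGTCA at bases -143 to -136 from its start, a sequence found in 1.55% of all promoters. The 5-letter core of that element, TGACG, overlaps it and was found in 17.8% of promoters. Fos held that core at -129 to -125 and at -66 to -62, Junb at -106 to -102, and Dusp1 at -191 to -187 besides the full element. Jun held TGACATCA, the variant AP-1 site through which AP-1 proteins are known to act on the Jun gene, at -45 to -38, against 2.93% of promoters. Fos also held the TATA box TATAAA at -33 to -28, found in 12.4% of promoters. The CCAAT box, in 33.8% of promoters, was present in Jun at -65 to -61, in Junb at -36 to -32 and in Ier3. Fosl2 held the EGR motif GCGNGGGCG, found in 4.7% of promoters. The Jund window held none of the motifs searched. No member window held the common AP-1 motif TGANTCA (6.75% of promoters) or a CArG box, the site of serum response factor (1.47% of promoters), which says only that these letters are not in these windows.

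In double-knockout oocytes 9 of the 10 immediate-early genes rose relative to wild type, none fell, and Myc did not pass the test. The largest rises in array signal were those of Jun (5.36-fold), Egr1 (2.73-fold) and Fos (2.33-fold), which encode the factors best known as first responders to growth signals. Ier2, Jund and Dusp1 rose by 1.48-fold to 1.82-fold, and Junb, Fosl2 and Ier3 by 1.31-fold to 1.37-fold. A gene was called when its adjusted p was under 0.05 in a limma model across 21218 probe sets, and the background was 18.5% of them called higher. That background includes dim probe sets, whose mean did not exceed that of the median probe set in any genotype. Without them, 27.5% of the 11161 probe sets left were called higher. By the 1.4-fold limit that the study's design text names, 6 members rose, against 8.35% of probe sets. The median difference over the 10 members was 0.60 log2 units, and over all probe sets tested it was -0.01. All 4 double-knockout arrays lay above all 4 wild-type arrays for 8 members (background 16.9%), and above the 12 other arrays together for Fos, Jun, Jund, Egr1 and Ier2 (background 11.3%). Of all calls in this comparison 48.3% were higher, and 30.8% when each array was first centred on its own median, which moved the median of all probe sets to -0.10. The double-knockout arrays stood apart in this respect, their own medians over all probe sets lying between 4.54 and 4.59, above those of the 12 other arrays, at 4.46 to 4.51. With that centring 8 members still rose and none fell, Ier3 being the member lost.

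**Figure D1:**
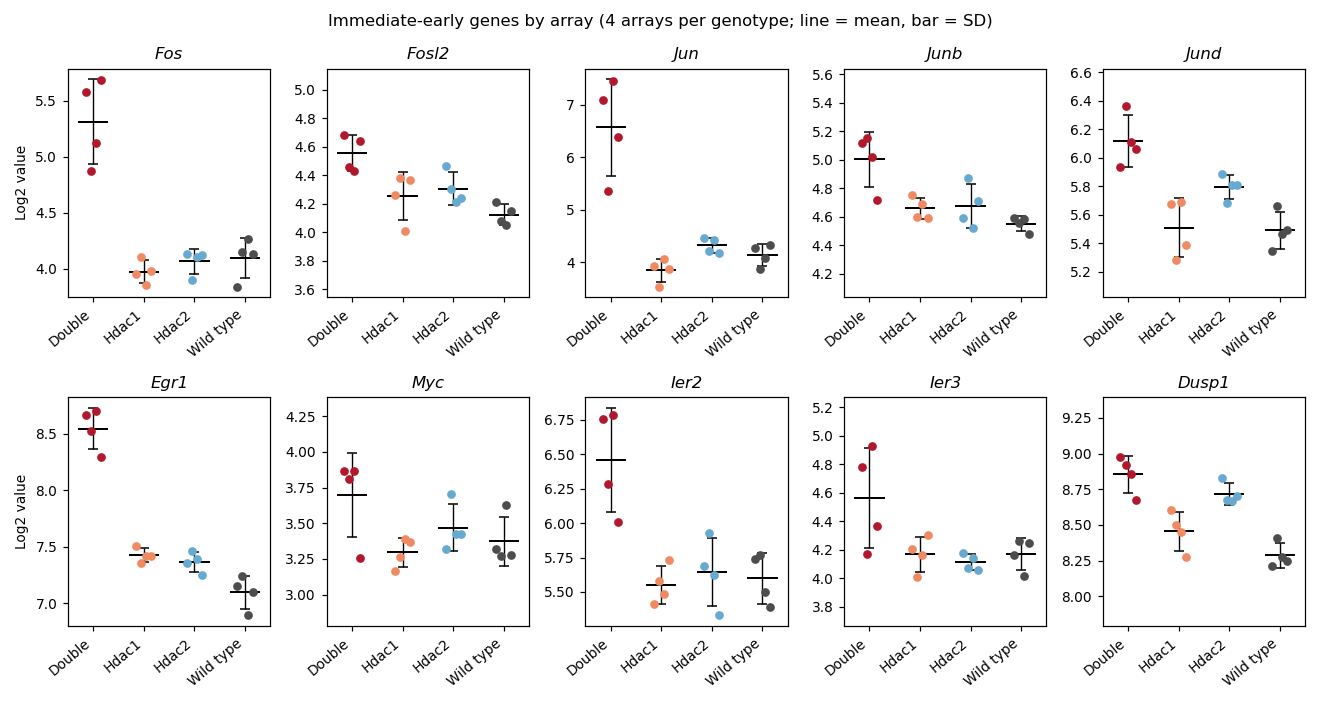
Each panel plots 1 gene, with the deposited log2 value on a vertical axis of its own range and the 4 genotypes on the horizontal axis. Points are the 4 arrays of a genotype, the horizontal line is their mean and the bar is ± 1 SD. The double-knockout means are the highest in all 10 panels, and in the panels of Fos, Jun, Jund, Egr1 and Ier2 every double-knockout point lies above every other point.

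Of the JUN subunits, Jun changed most. It stood at log2 values of 7.09, 5.35, 7.44 and 6.38 in the double-knockout arrays, at 3.93, 3.54, 4.06 and 3.87 in Hdac1-knockout arrays, at 4.47, 4.22, 4.42 and 4.18 in Hdac2-knockout arrays, and at 4.27, 3.87, 4.09 and 4.34 in wild type. Each double-knockout array thus lay above all 12 others, while the spread among them was wide, with an SD of 0.92 against 0.21 in wild type. The mean difference from wild type was 2.42 ± 0.30 log2 units (limma standard error, adjusted p = 7.12e-06), and 0.632% of all tested probe sets had a larger one. Jund, a JUN protein that many resting cells make steadily and whose transcript is the least inducible of the family, averaged 6.12 ± 0.18 in the double knockout and 5.49 ± 0.13 in wild type (SD, n = 4 each). Its double-knockout arrays read 5.94, 6.36, 6.11 and 6.06, against 5.35, 5.66, 5.47 and 5.49 in wild type, without overlap. Jund rose by 0.63 ± 0.10 (adjusted p = 0.00012). Junb, which can oppose the activity of JUN, read 5.11, 5.15, 5.02 and 4.72 in the double knockout, against 4.59, 4.55, 4.58 and 4.48 in wild type. It rose by 0.45 ± 0.09 (adjusted p = 0.000687), again without overlap, and its lowest double-knockout array was replicate 4.

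Both measured FOS subunits on the list rose as well. Fos read 5.58, 4.88, 5.12 and 5.68 in the double knockout, 3.95, 4.10, 3.86 and 3.98 in Hdac1-knockout arrays, 4.13, 3.90, 4.10 and 4.12 in Hdac2-knockout arrays, and 3.84, 4.15, 4.26 and 4.13 in wild type. The double-knockout arrays stood clear of all others, and the 3 remaining genotypes lay on top of one another. The difference from wild type was 1.22 ± 0.14 (adjusted p = 3.36e-06). Fosl2, which encodes FRA-2, a FOS protein that persists longer than FOS itself, read 4.68, 4.46, 4.43 and 4.64 in the double knockout, against 4.21, 4.08, 4.05 and 4.15 in wild type. The groups did not overlap, and the rise was 0.43 ± 0.09 (adjusted p = 0.000668).

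Egr1, which encodes a zinc-finger transcription factor induced alongside FOS, was the member measured with the least scatter relative to its change. It read 8.66, 8.52, 8.70 and 8.29 in the double knockout, 7.50, 7.36, 7.42 and 7.41 in Hdac1-knockout arrays, 7.36, 7.46, 7.39 and 7.25 in Hdac2-knockout arrays, and 7.15, 7.24, 6.89 and 7.10 in wild type. The lowest double-knockout array lay well above the highest of the other 12. The difference from wild type was 1.45 ± 0.09 (adjusted p = 2.02e-09), the smallest adjusted p of the 10 members.

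Ier2, a nuclear early response protein, read 6.76, 6.29, 6.79 and 6.01 in the double knockout, against 5.74, 5.77, 5.50 and 5.39 in wild type. It rose by 0.86 ± 0.16 (adjusted p = 0.000361), with no overlap and with replicate 4 the lowest of the double-knockout arrays. Ier3, a stress-inducible protein that influences cell survival and ERK signalling, averaged 4.56 ± 0.35 in the double knockout and 4.17 ± 0.11 in wild type (SD, n = 4 each). Its double-knockout arrays, at 4.78, 4.17, 4.93 and 4.37, overlapped the wild-type arrays, at 4.17, 4.26, 4.02 and 4.25, in replicate 2. Its rise of 0.39 ± 0.13 passed the test (adjusted p = 0.0208), but not without wild-type replicate 3, double-knockout replicate 1 or double-knockout replicate 3 (adjusted p = 0.0675 to 0.0795). Dusp1, the MAP kinase phosphatase also called MKP-1, read 8.97, 8.92, 8.86 and 8.67 in the double knockout and 8.21, 8.41, 8.28 and 8.24 in wild type. It rose by 0.57 ± 0.08 (adjusted p = 1.81e-05), and the groups did not overlap.

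Myc, the growth-promoting transcription factor that needs MAX as its partner, read 3.87, 3.81, 3.86 and 3.26 in the double knockout, 3.17, 3.26, 3.39 and 3.37 in Hdac1-knockout arrays, 3.32, 3.71, 3.42 and 3.42 in Hdac2-knockout arrays, and 3.32, 3.27, 3.63 and 3.28 in wild type. Of the double-knockout arrays 3 lay above every wild-type array and replicate 4 lay below them all. The difference of 0.33 ± 0.13 missed the threshold (adjusted p = 0.0521), with a 95% interval of 0.06 to 0.59. Without double-knockout replicate 4 it was 0.47 with an adjusted p of 0.00124, and without wild-type replicate 3 the adjusted p was 0.0208, so single arrays decide whether Myc passes.

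The values of most of these genes were low. As a gauge of what a silent gene reads, 8 genes of the Y chromosome, which a female genome lacks, had a median of 3.21 in the double knockout and 3.23 in wild type, and the highest of them, Sry, stood at 5.21 in the double knockout and 5.10 in wild type. In the double knockout 6 members (Fos, Jun, Jund, Egr1, Ier2 and Dusp1) stood above all 8, against 4 (Jund, Egr1, Ier2 and Dusp1) in wild type and in each single knockout. By these group means Fos and Jun read above every Y-linked gene in double-knockout oocytes but not in wild-type oocytes. For Fos the margin was small, with a mean of 5.32 ± 0.38 (SD, n = 4). Its double-knockout replicates 2 and 3, at 4.88 and 5.12, lay below the Sry mean. The folds of Fos and Jun are taken over a wild-type value that may be mostly background, and their order by fold against Egr1 is not settled. Fosl2, Junb, Ier3 and Myc lay within the Y-linked range in all genotypes, where a probe set may read mostly background, and fold changes over values this low are likely to understate the change in mRNA. The upper end of that range rests on Sry alone. Fosl2, Junb and Ier3 read above 7 of the 8 Y-linked genes in all genotypes, as Fos and Jun did in wild type. Myc read above 5 of them in wild type and above 3 in the Hdac1 knockout.

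On the loss of 1 deacetylase few members passed the test. In the Hdac1 knockout 0 of the 10 passed limma's test against wild type, 0 of them also in each of the alternative fits run, in a comparison where 0.0707% of probe sets were called in either direction. At an unadjusted p under 0.05 the count was 2: Egr1, with a 95% interval of 0.14 to 0.51 log2 units, and Dusp1, with one of 0.01 to 0.34. Ranked by p among the 21218 probe sets, Egr1 was number 135 and Dusp1 number 1654. At least 1654 probe sets thus passed the same unadjusted cut. The adjusted p of Egr1 was 0.276 for a difference of 0.33 ± 0.09, its 4 Hdac1-knockout arrays reading 7.36 to 7.50 and the 4 wild-type arrays 6.89 to 7.24. Jun differed by -0.29 in the Hdac1 knockout, with an interval of -0.93 to 0.35 (adjusted p = 0.847).

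In the Hdac2 knockout Dusp1 alone passed, against a background of 2.86% of probe sets called higher. Dusp1 read 8.83, 8.67, 8.67 and 8.70 in the Hdac2 knockout and 8.21, 8.41, 8.28 and 8.24 in wild type, a rise of 0.43 ± 0.08 or 1.35-fold (adjusted p = 0.00387). Jund (0.30, adjusted p = 0.104), Egr1 (0.27, adjusted p = 0.0931) and Fosl2 (0.18, adjusted p = 0.262) did not pass. With Dusp1 they were the 4 members at an unadjusted p under 0.05 in limma's test. The 95% intervals were 0.09 to 0.52 for Jund, 0.08 to 0.45 for Egr1 and 0.002 to 0.37 for Fosl2. Fosl2 was number 3832 by p, so at least 3832 of the 21218 probe sets passed that unadjusted cut. The differences of Fos (-0.03), Ier2 (0.04) and Ier3 (-0.06) were close to 0, with 95% intervals that reached no further than 0.38. Of all calls in this comparison 51.1% were higher, and 36.7% with each array centred on its median, with Dusp1 still called. The test of the Hdac2 knockout against the Hdac1 knockout called 0 of the 10 members. There 5.78% of probe sets were called in either direction (1226 of them, but 678 to 1242 with 1 array left out). In that test 2 members (Jund and Dusp1) had an unadjusted p under 0.05. Ranked by p among the 21218 probe sets, Dusp1 was number 1426 and Jund number 2260. At least 2260 probe sets thus passed the same unadjusted cut. Dusp1 came nearest, 0.26 higher in the Hdac2 knockout (adjusted p = 0.0623, and 0.0458 without Hdac1-knockout replicate 1), and Jun was 0.47 higher (adjusted p = 0.448).

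Set against the single knockouts, the double knockout was higher for all 10 members relative to the Hdac1 knockout and for 8 relative to the Hdac2 knockout, the exceptions being Dusp1 and Myc. The background was 18.7% of probe sets called higher against the Hdac1 knockout and 16.8% against the Hdac2 knockout. These comparisons share the double-knockout arrays with the comparison against wild type and are not independent of it. Jun was 2.72 ± 0.30 above the Hdac1 knockout (adjusted p = 2.08e-06) and 2.24 ± 0.30 above the Hdac2 knockout (adjusted p = 2.54e-05). Egr1 was 1.12 ± 0.09 above the Hdac1 knockout and 1.18 ± 0.09 above the Hdac2 knockout. For Fos these differences were 1.34 ± 0.14 above the Hdac1 knockout and 1.25 ± 0.14 above the Hdac2 knockout. Dusp1 exceeded the Hdac2 knockout by 0.14, with a 95% interval of -0.02 to 0.30 (adjusted p = 0.189). Single arrays decided 4 of these calls. Against the Hdac1 knockout, Ier3 did not pass without Hdac1-knockout replicate 2 or double-knockout replicate 1 or 3 (adjusted p = 0.0635 to 0.0746), nor Myc without Hdac1-knockout replicate 1 or double-knockout replicate 1 or 3 (0.0537 to 0.0570). Against the Hdac2 knockout, Fosl2 did not pass without Hdac2-knockout replicate 2, 3 or 4 or double-knockout replicate 1 or 4 (0.0672 to 0.106), nor Jund without Hdac2-knockout replicate 2 or double-knockout replicate 2 (0.0700 and 0.0848). Without double-knockout replicate 4, Myc passed there (0.00769). Of all calls against the Hdac1 knockout 48.2% were higher, and 33% with each array centred on its median. Against the Hdac2 knockout these shares were 49.8% as deposited and 35.6% when centred. In the order of levels all 10 members were highest in the double knockout, and 8 of them were told apart there from the second genotype. Below it, wild type was lowest for 5 members, the Hdac1 knockout for 4 and the Hdac2 knockout for Ier3, but none of the 20 neighbouring pairs among the 3 lower genotypes differed at the threshold.

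A further test asked whether losing both deacetylases changed a gene by more or less than the log2 changes of the single knockouts add up to. It passed for 4 members, all above that sum, against a background of 11.7% of probe sets called higher. The departure was 2.53 ± 0.43 for Jun (adjusted p = 0.000426), 1.37 ± 0.20 for Fos (0.000125), 0.86 ± 0.23 for Ier2 (0.0107) and 0.85 ± 0.12 for Egr1 (0.000121). Jun and Fos read within the Y-linked range in wild type and in each single knockout. Changes in the single knockouts may therefore not show for them, and the size of their departure is uncertain. For Dusp1 it was -0.03 with a 95% interval of -0.26 to 0.20 (adjusted p = 0.885), and its changes in the Hdac1, Hdac2 and double knockouts were 0.17, 0.43 and 0.57. The 5 other members had departures between 0.11 (Fosl2) and 0.45 (Ier3) that did not pass, with adjusted p-values of 0.0782 or more. Ier3 passed without double-knockout replicate 2 (0.00984), and Junb and Myc without replicate 4 (0.0443 and 0.0233).

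**Figure D2:**
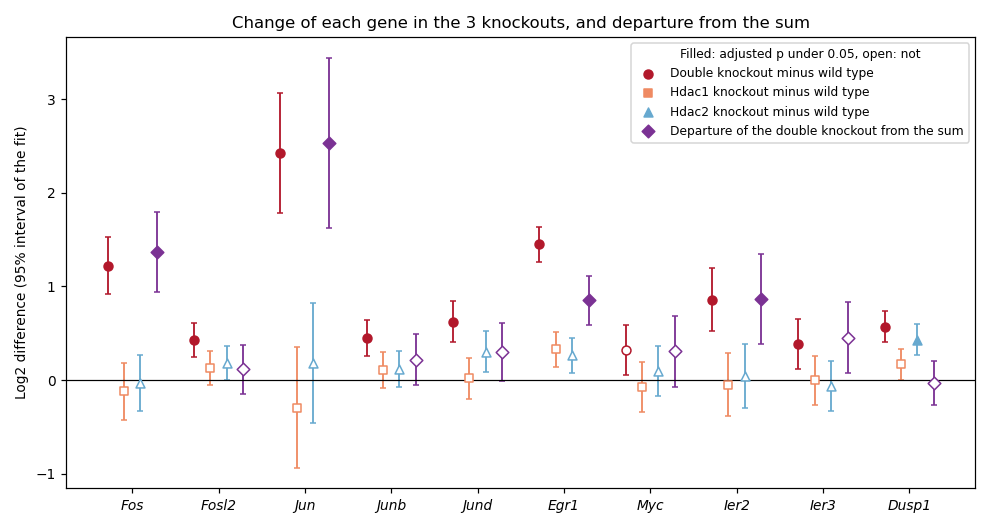
The vertical axis gives the log2 difference of each knockout from wild type, and how far the double knockout lies above or below the added single-knockout differences, for the 10 genes on the horizontal axis. Bars are 95% intervals of the fit and filled symbols passed at an adjusted p under 0.05. Jun, Fos, Egr1 and Ier2 have filled symbols for the double knockout and for the departure, and Dusp1 has the only filled symbol for a single knockout.

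The 4 double-knockout arrays did not rank the members in the same order. Jun exceeded its wild-type mean by 2.95, 1.21, 3.30 and 2.24 in replicates 1 to 4, so that replicate 2 was its lowest array. Fos was also lowest in replicate 2, but highest in replicate 4. Replicate 4 was the lowest of the 4 arrays for 5 members, among them Egr1, Ier2 and Dusp1, and replicate 3 the highest for 4. The median over the members was 0.65, 0.66, 0.69 and 0.46 log2 units above the wild-type means in these arrays. Over all probe sets called higher in the double knockout the same medians were 0.45, 0.42, 0.47 and 0.44.

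**Figure D3:**
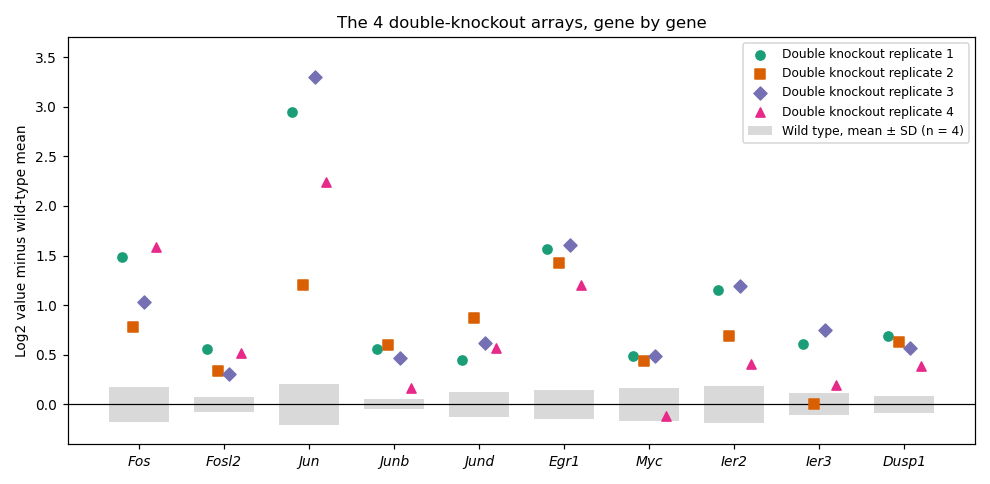
For each gene on the horizontal axis, 4 symbols give the double-knockout arrays as log2 value minus the wild-type mean, and the grey box spans ± 1 SD of the 4 wild-type arrays. Jun has the widest scatter, 1.21 to 3.30, and Myc is the gene with an array below the wild-type mean.

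Oocyte markers read high in both genotypes. All 11 were measured, their mean log2 value lay between 11.42 and 11.45 in double-knockout arrays and between 11.44 and 11.49 in wild-type arrays, and 2 fell in the double knockout, Figla by 0.56 and Kit by 0.17. Of 10 granulosa markers 8 lay at or below the highest Y-linked gene in both genotypes. The mean of that list was 4.76 to 4.91 in the double knockout and 4.78 to 4.95 in wild type, with Inha higher (0.59, at a double-knockout level of 4.83), and Nr5a2 (-1.07) and Kitl (-0.37) lower. All 11 theca and stroma markers lay at or below that gene, with a list mean of 3.98 to 4.06 in the double knockout and 3.85 to 3.96 in wild type, and Hsd3b1 (0.51) and Acta2 (0.31) were higher. Of 10 blood, immune and endothelial markers 7 lay at or below it, the list mean was 4.37 to 4.48 in the double knockout and 4.61 to 4.65 in wild type, Cd68 was higher (0.38), and Pecam1 (-1.37) and Tek (-0.81) were lower. Beside these marker counts, 18.5% of all probe sets were called higher in the double knockout and 19.8% lower. Of the marker rises 3 did not hold in each fit. Cd68 and Acta2 did not pass with each array centred on its median (adjusted p = 0.0797 and 0.0682), nor Inha with the compared groups alone (0.0826). With single arrays left out, Cd68 did not pass without wild-type replicate 1 or 3 or double-knockout replicate 3 or 4 (0.0611 to 0.0992). Inha did not without wild-type replicate 2 or 3 or double-knockout replicate 1 or 3 (0.0529 to 0.0710), and Acta2 did not without wild-type replicate 2 or double-knockout replicate 1 (0.0518 and 0.0545). The part of such cells in the members' changes was not tested, and in pooled oocytes fewer cells carrying an mRNA cannot be told apart from less mRNA per cell.

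Hdac1 itself averaged 7.66 ± 0.10 in the double knockout, 6.61 ± 0.19 in Hdac1-knockout arrays, 9.64 ± 0.11 in Hdac2-knockout arrays, and 9.28 ± 0.05 in wild type (SD, n = 4 each). The Hdac2 probe set averaged 10.87 ± 0.06 in the double knockout, 11.13 ± 0.05 in Hdac1-knockout arrays, 10.99 ± 0.03 in Hdac2-knockout arrays, and 11.09 ± 0.07 in wild type. It therefore does not show the Hdac2 deletion, and which exons it reads and which were deleted was not stated in the labels. Arrays of 1 genotype correlated across probe sets at 0.995 to 0.998.

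Other immediate-early and early-response genes, from a list of 53 of which 52 were measured, were more often called higher than lower in the double knockout. There 30 rose and 7 fell while 15 did not pass, beside 18.5% of all probe sets called higher and 19.8% called lower. The median was 0.35 log2 units in the list and -0.01 over all probe sets. Centring every array moved these counts to 27 and 8. Without dim probe sets 25 of 41 rose and 7 fell, beside 3070 higher and 3883 lower of 11161 probe sets. Plk2, a polo-like kinase induced by serum, rose 3.89-fold (5.62 ± 0.27 in the double knockout, 3.65 ± 0.10 in wild type, adjusted p = 2.52e-10), from a wild-type value within the Y-linked range. Btg2, an anti-proliferative gene and p53 target, rose 3.11-fold (8.90 ± 0.06 in the double knockout, 7.27 ± 0.07 in wild type, adjusted p = 4.4e-10). Klf10, induced early by TGF-beta, rose 2.56-fold in the double knockout and by 0.34 log2 units in the Hdac2 knockout (adjusted p = 1.51e-09 and 0.0201). The 3 fallers with the smallest adjusted p were Bhlhe40, a circadian repressor (-1.17), Trib1, a pseudokinase (-0.85), and Gadd45a, a growth-arrest gene (-0.60), with the double-knockout value of Trib1 within the Y-linked range. Egr2, a close relative of Egr1, also fell (-0.43, adjusted p = 0.0306), and Egr3 (0.01) and Egr4 (0.06) did not pass, named here after their values were seen. The list had 0 genes called by limma in the Hdac1 knockout, and 5 of the 52 at an unadjusted p under 0.05. At least 1654 of the 21218 probe sets passed that unadjusted cut, and the 5 were not tested against this share. In the Hdac2 knockout 4 genes of the list were higher and 3 lower, where 2.86% of all probe sets were called higher and 2.74% lower. The departure from the sum of the single changes was called higher for 24 of its genes and lower for 3, beside 11.7% and 11.6% of all probe sets.

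**Figure D4:**
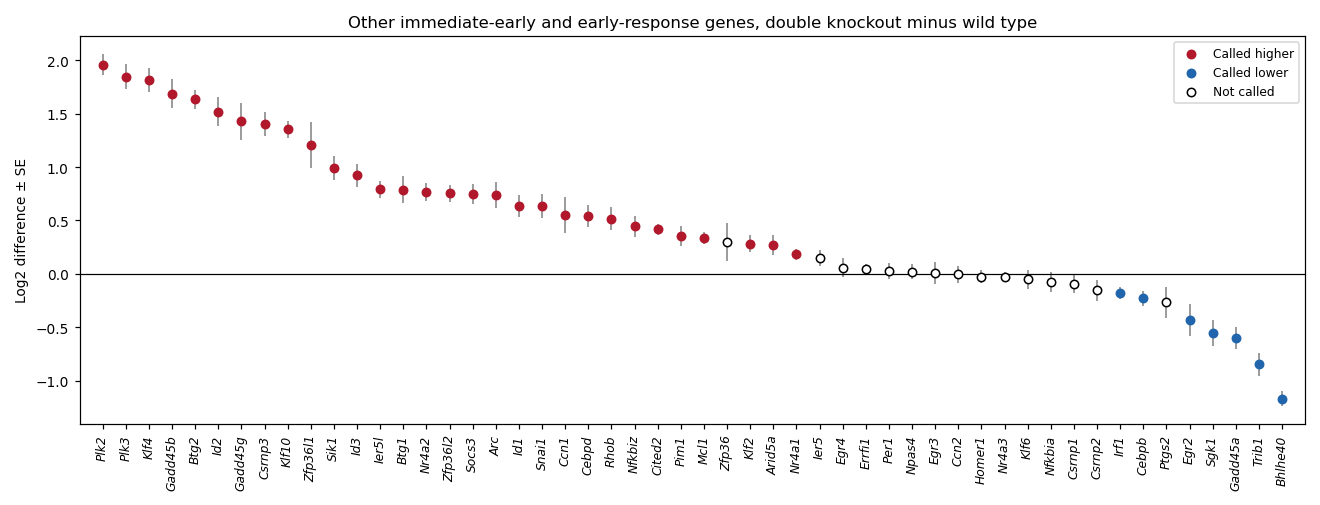
The vertical axis gives the log2 difference, double knockout minus wild type, with limma's standard error as the bar, for the 52 other immediate-early and early-response genes, sorted along the horizontal axis. Filled red symbols are the 30 genes called higher, filled blue symbols the 7 called lower and open symbols the 15 not called. The range runs from Plk2 at 1.96 to Bhlhe40 at -1.17.

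Further members of the AP-1 and ATF families were mostly not called. In a list of 18 with 16 measured, 3 rose and 2 fell while 11 did not pass, and the median was -0.01. These counts are near or below the 18.5% of all probe sets called higher and the 19.8% called lower. Atf3, a stress-inducible repressor that pairs with JUN proteins, rose 6.29-fold, standing at 7.47 ± 0.63 in the double knockout, 5.63 ± 0.41 in the Hdac2 knockout and 4.82 ± 0.22 in wild type. Its double-knockout change had an adjusted p of 4.03e-07, and the Hdac2-knockout difference of 0.81 did not pass (adjusted p = 0.0761). Maff, a small MAF protein, rose 2.07-fold, and Atf2, a partner of JUN at the Jun promoter, 1.3-fold. Wild-type Atf3 lay within the Y-linked range. Atf1 and Atf7 fell by 0.27 and 0.28.

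Of the factors that switch on immediate-early genes, Srf, which encodes serum response factor, rose 1.41-fold in the double knockout (0.50 ± 0.06, adjusted p = 7.13e-06) and by 0.27 in the Hdac2 knockout (adjusted p = 0.0206). Among its partners 3 fell, of 6 genes measured in that list: Elk4 (-0.39) and the actin-regulated coactivators Mrtfb (-0.26) and Mrtfa (-0.21), with -0.46 and -0.44 on the other probe sets of Mrtfb. Over all probe sets 18.5% were called higher and 19.8% lower in the double knockout, and a list of 6 is short to set against these shares. Nab1 and Nab2, which encode co-repressors that bind EGR proteins, did not pass in the double knockout against wild type, with or without adjustment. Against the Hdac2 knockout, 1 of the 2 was called lower in the double knockout, beside 16.9% of all probe sets. Between the single knockouts 1 was called higher and 1 lower, where 5.78% of probe sets were called in either direction.

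Genes of the MAP kinase cascades, the kinase chains that carry growth signals to these promoters, were called in both directions. In that list of 44, 35 were measured, and the double knockout had 11 higher and 12 lower, the other 12 not passing, at a median of 0.02, beside 18.5% of all probe sets called higher and 19.8% called lower. Mapkapk3, a kinase activated by p38, rose 6.96-fold (6.71 ± 0.28 in the double knockout, 3.91 ± 0.18 in wild type). Erbb2, an EGF-receptor family kinase, rose 5.54-fold (6.63 ± 0.21 in the double knockout, 4.16 ± 0.07 in wild type), and Mapk7, which encodes ERK5, 1.82-fold. The wild-type values of Mapkapk3 and Erbb2 lay within the Y-linked range, so these folds may understate the change in mRNA. Nras (-0.53), the RAS activator Sos2 (-0.71) and Fgfr2 (-0.80) fell. With each array centred on its median, 9 rose and 12 fell, and the list's median was -0.07. Without dim probe sets 10 of 32 rose and 11 fell, beside 3070 higher and 3883 lower of 11161 probe sets. The list's counts are near that background.

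The phosphatases and other brakes on ERK signalling, the group to which Dusp1 belongs, showed 8 rises, 5 falls and 6 genes that did not pass among 19, with a median of 0.21, beside 18.5% of all probe sets called higher and 19.8% called lower. Without dim probe sets 7 of 15 rose and 5 fell, beside 3070 higher and 3883 lower of 11161 probe sets. Dusp4 rose 3.16-fold (5.75 ± 0.32 in the double knockout, 4.09 ± 0.13 in wild type, adjusted p = 1.36e-07), Dusp9 2.1-fold and Dusp8 1.58-fold, all of them MAP kinase phosphatases. Wild-type Dusp4 and Dusp8 lay within the Y-linked range. Spry4, an inhibitor of receptor tyrosine kinase signalling, fell by 1.12 log2 units, and Dusp22 and Dusp10 by 0.96 and 0.46.

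Around Myc, the MYC and MAX network showed 6 rises, 3 falls and 4 genes that did not pass among 13, beside 18.5% of all probe sets called higher and 19.8% called lower. Mycl, a MYC paralogue, rose 2.1-fold (5.93 ± 0.24 in the double knockout and, within the Y-linked range, 4.86 ± 0.11 in wild type). Mxd4, a MAX partner that opposes MYC, rose 1.69-fold, and by 0.39 in the Hdac2 knockout (adjusted p = 0.00405), while Mlxip rose 1.61-fold. Zbtb17, which encodes the MYC-binding factor MIZ-1, fell by 0.42, Mga by 0.24 and Mlxipl by 0.23. Mlxipl did not pass without wild-type replicate 1, 2 or 4 or double-knockout replicate 3 or 4 (adjusted p = 0.0605 to 0.0679). Among MYC target genes 25 were measured, of which 11 rose and 1 fell while 13 did not pass, at a median of 0.16. Centring every array made this 9 higher and 3 lower, at a median of 0.07. Ldha, lactate dehydrogenase A, rose 3.93-fold, Srm, spermidine synthase, 1.89-fold and the replication helicase subunit Mcm7 1.64-fold, while the telomerase gene Tert fell by 0.37. Among AP-1 target genes 17 were measured, of which 5 rose and 1 fell while 11 did not pass, at a median of 0.03. Centring made it 5 higher and 3 lower and turned the median to -0.06. The same 18.5% and 19.8% of all probe sets are the background of both lists. Without dim probe sets 14 of 25 MYC targets rose and 1 fell, and 4 of 6 AP-1 targets rose and 1 fell. In the MYC and MAX network 5 of 11 rose and 3 fell. The background there was 3070 higher and 3883 lower of 11161 probe sets. Hbegf, an EGF-receptor ligand, rose 2.39-fold, Sqstm1, an autophagy adaptor, 2.05-fold and Fn1, fibronectin, 2.61-fold over a wild-type value within the Y-linked range, and the thioredoxin reductase gene Txnrd1 fell by 0.27.

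The 3 members with the widest range over the genotypes were set against 9485 other genes for likeness of pattern, as Pearson's r over the 16 arrays. Efna3 (0.976), Mnx1 (0.968) and Bend7 (0.967) were most like Jun. Ehd1 (0.978), Slc5a6 (0.975) and Mef2d (0.974) were most like Egr1, and Synb (0.970), Lbh (0.966) and Cdc45 (0.966) most like Fos. These values are a description: the 16 points share 4 genotypes, and with the genotype means removed r was 0.443 to 0.859 for these 9 genes.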

How the data were processed

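RNA of 16 pooled-oocyte samples was hybridised to Affymetrix Mouse 1.1 ST arrays after whole-transcriptome amplification. The authors deposited values for 35556 probe sets on each array, taken here as log2 from their range of 2.07 to 12.89 since no source states the base, so fold changes rest on that inference. Per the submitters' processing notes MAS5 was used, and per the labels' design text also GeneSpring v7, SAM and EASE. The steps from these programs to the deposited log2 values were not stated. Medians of the arrays ran from 4.46 to 4.59, those of the double knockout being the 4 highest. The values were not normalized further, and centring and quantile normalization were alternatives. Depth does not apply to arrays, and the number of arrays limits the precision.

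Of the probe sets 21218 had 1 gene symbol (18820 genes), 1881 had several and 12457 had none, and 21185 matched RefSeq (GRCm38.p6) by gene ID, which changed no symbol. A gene was read on its probe set with the highest mean. A limma model (R 4.3.3, limma 3.58.1) of the 4 genotype means covered all arrays, with 12 residual degrees of freedom, two-sided p-values and Benjamini-Hochberg adjustment over the 21218 probe sets, and was checked on simulated data. Replicates are biological per the labels.

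The 10 members and all gene lists were chosen with earlier results of these data known, so no count over them is independent support. From each list the text names up to 3 called genes in each direction, ranked by adjusted p in the double knockout. Genes like a member were sought among those above the median probe set in at least 1 genotype. Replicate numbers did not pair the samples: deviations of the 24 same-numbered pairs correlated at -0.148 to 0.0866. The alternatives tried were centring or quantile-normalizing the arrays, leaving out dim probe sets, a mean-variance trend with robust fitting, fitting the compared groups alone, testing every probe set, array weights, a replicate block, a 1.4-fold limit and leaving out each array.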

Additional observations from a re-analysis of the deposited data

Results flagged for a closer look

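In 3 of the 40 gene-by-genotype groups of 4 arrays, 1 array lay far from the other 3, with a gap that took up most of the group's range (chance marks about 1 group in 20). Fos read 3.90 in replicate 2 of the Hdac2 knockout, below the 3 others. Myc read 3.26 in replicate 4 of the double knockout, below the 3 others. Myc also read 3.63 in replicate 3 of wild type, above the 3 others.

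The change of 4 genes on losing both deacetylases departed from the sum of the changes on losing each one, by the limma interaction test. The departures, in log2 units, were 2.53 for Jun, 1.37 for Fos, 0.86 for Ier2 and 0.85 for Egr1. Those of Jun and Fos rest on wild-type and single-knockout values within the Y-linked range.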

How the results depend on the processing

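The calls of Jun, Egr1, Fos, Ier2, Jund, Dusp1, Junb and Fosl2 as higher in the double knockout than in wild type held in each alternative run that tested them, apart from the 1.4-fold limit, which Junb and Fosl2 miss. Myc passed there with a trend and robust fitting (adjusted p = 0.0393), with a replicate block (0.0473) and without wild-type replicate 3 or double-knockout replicate 4, and Ier3 was lost with centring (0.0564) or with the compared groups alone (0.073). The causes were not tested. Leaving out each array in turn gave 8 to 10 members called in this comparison, 0 to 0 for Hdac1 loss, 1 to 1 for Hdac2 loss, 8 to 10 for the double against the Hdac1 knockout, 6 to 8 against the Hdac2 knockout, 0 to 1 between the single knockouts and 4 to 6 for the departure from the sum.

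With the replicate block, 10 members were called in the double knockout, 0 for Hdac1 loss, 1 for Hdac2 loss, 10 for the double against the Hdac1 knockout, 8 against the Hdac2 knockout, 1 between the single knockouts (Dusp1) and 4 for the departure. Over all probe sets the block called 7885, against 8122 without it, in the double knockout and 950, against 1187, in the Hdac2 knockout. Beyond Myc and Dusp1 it changed no member's call. In the Hdac2 knockout the members called were 2 with the compared groups alone (Jund joining Dusp1) and 0 at 1.4-fold. Leaving out dim probe sets kept 6 members, of which 6 were called against the Hdac1 knockout and 5 against the Hdac2 knockout. At 1.4-fold these counts were 5 and 4. Between the single knockouts 1 member was called without dim probe sets, with trend and robust fitting or with array weights (Dusp1 each time), and 1 with the compared groups alone (Jun). In the double knockout against the Hdac2 knockout, Fosl2 and Jund were lost with centring, and Fosl2 also with quantile normalization and with every probe set tested (0.0540). Against the Hdac1 knockout, Fosl2 was lost with centring and with quantile normalization (0.0519 and 0.0510), and Ier3 with the compared groups alone (0.0710).

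Differences near 0 changed sign without being called. Junb between the single knockouts was -0.000665 with centring and -0.013 with quantile normalization. Over the fits that left out an array, the difference from wild type in the Hdac1 knockout ran from -0.042 to 0.093 for Jund, -0.12 to 0.0098 for Ier2, -0.055 to 0.050 for Ier3 and -0.11 to 0.0072 for Myc. In the Hdac2 knockout it ran from -0.11 to 0.026 for Fos and -0.051 to 0.15 for Ier2. The Hdac2 knockout minus the Hdac1 knockout ran from -0.051 to 0.067 for Junb, -0.029 to 0.095 for Fosl2 and -0.0033 to 0.20 for Ier2, and the departure of Dusp1 from -0.092 to 0.030. Counts over all probe sets moved by over 1.5 times at 1.4-fold (3472, against 8122, in the double knockout and 454, against 1187, in the Hdac2 knockout). In the Hdac1 knockout the count was 15, against 30 without its replicate 4, in the Hdac2 knockout it was 683 to 952 with an array left out, and between the single knockouts it was 1226, against 794, 785, 752 and 678 without Hdac1-knockout replicate 1 or 3 or Hdac2-knockout replicate 1 or 4. Few arrays and signals near background limit what can be read for Fosl2, Junb, Ier3 and Myc.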
